A study of Mus musculus with 59 samples.

Results

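The genes described here are 7 regulators and early markers of primordial germ cells: *Prdm1*, *Prdm14*, *Dppa3*, *Nanos3*, *Kit*, *Dnd1* and *Ifitm3*. They were taken by gene symbol, not by their values, from the 22134 genes matched in RNA-seq counts of 14 single mouse epiblasts at E6.25, just before gastrulation. All 7 were listed in the counts, and each is represented by the transcript with the highest mean count. Of the 7, 5 had enough counts to be tested in both crosses, and *Prdm14* and *Nanos3* did not.

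The epiblasts came from intercrosses of heterozygous mice on a mixed background. In the *Ehmt2* cross, 4 G9a-/- epiblasts, which lack the H3K9 methyltransferase G9a encoded by *Ehmt2*, were compared with 4 epiblasts labelled G9a+/+. In the *Ezh2* cross, 3 knockouts of *Ezh2*, the H3K27 methyltransferase of Polycomb repressive complex 2, were compared with 3 epiblasts labelled Ezh+/+. The mutant alleles were inherited through the germline, so that extraembryonic tissues of a knockout carried them too. *Ehmt2*+/- mice had also been crossed to the ΔPE-Pou5f1-EGFP reporter, a transgene expressed in the inner cell mass, and whether these epiblasts carried it is not stated. Each library was made from the amplified RNA of 1 dissected epiblast, with no sorting of cells described. The crosses shared no control epiblast.

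Primordial germ cells arise from a few proximal epiblast cells that receive BMP4 from the extraembryonic ectoderm and WNT3 at the posterior side. PRDM1 (BLIMP1), PRDM14 and TFAP2C together impose the germ cell programme and repress the somatic programme. *Dppa3* (Stella) and *Ifitm3* (fragilis) mark the founding cells, while *Kit*, *Nanos3* and *Dnd1* serve the migration and survival of germ cells afterwards. At E6.25 the epiblast is competent for this fate, and few of its cells have entered it.

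The libraries held 30161171 to 68464895 counts over all transcripts, and 12495094 to 28434545 when each gene was represented by 1 transcript. The targeted gene was lower in both crosses. *Ehmt2* averaged 17.4 ± 10.5 CPM (counts relative to the scaled library size; SD, n = 4) in controls against 5.47 ± 2.74 (n = 4) in knockouts, a log2 fold change of -1.63 (SE 0.21, adjusted p = 0.0045, edgeR). *Ezh2* averaged 77.5 ± 30.6 CPM (n = 3) in controls against 13.5 ± 2.70 (n = 3) in knockouts, a log2 fold change of -2.52 (SE 0.27, adjusted p = 0.016, edgeR). All 8 epiblast markers were detected in every library, with summed levels of 1419 to 2732 CPM. The summed level of 11 visceral endoderm markers lay between 1.07 and 40.4 CPM in 12 libraries, but reached 1011 CPM in *Ezh2* control 2 and 2256 CPM in *Ezh2* knockout 1. The 6 extraembryonic ectoderm markers summed to 84.0, 22.4 and 31.6 CPM in *Ehmt2* knockouts 1 to 3, against 0.436 CPM in knockout 4 and 1.15 to 6.06 CPM in the controls. Libraries numbered 4 of the *Ehmt2* cross stood apart from numbers 1 to 3 of their group, at a chi-square over transcripts, per degree of freedom, of 105 to 133 against 12.8 to 29.8 for all other pairs of a group, and the comparison set was a term of that fit.

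Relative to transcript length, the 7 genes spanned a wide range of levels in the 7 control epiblasts, scaled together. *Ifitm3*, which encodes an interferon-induced transmembrane protein, was the most abundant at 17.2 ± 4.00 CPM per kb (SD, n = 7), above the other members in every control. *Dnd1* followed at 2.69 ± 0.66 CPM per kb, *Dppa3* at 1.45 ± 0.65, *Kit* at 1.22 ± 0.49 and *Prdm1* at 0.365 ± 0.31. *Nanos3* and *Prdm14* were last, at 0.0790 ± 0.11 and 0.00239 ± 0.0063 CPM per kb. *Dppa3* exceeded *Kit* in only 3 of 7 controls, and apart from *Ifitm3* against *Dnd1* every pair of neighbours in this order overlapped. Among the 22134 genes, *Ifitm3* stood at percentile 92.6 of level per length, *Dnd1* at percentile 70.0, *Dppa3* at 61.9, *Kit* at 59.9 and *Prdm1* at 46.4.

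**Figure D1:**
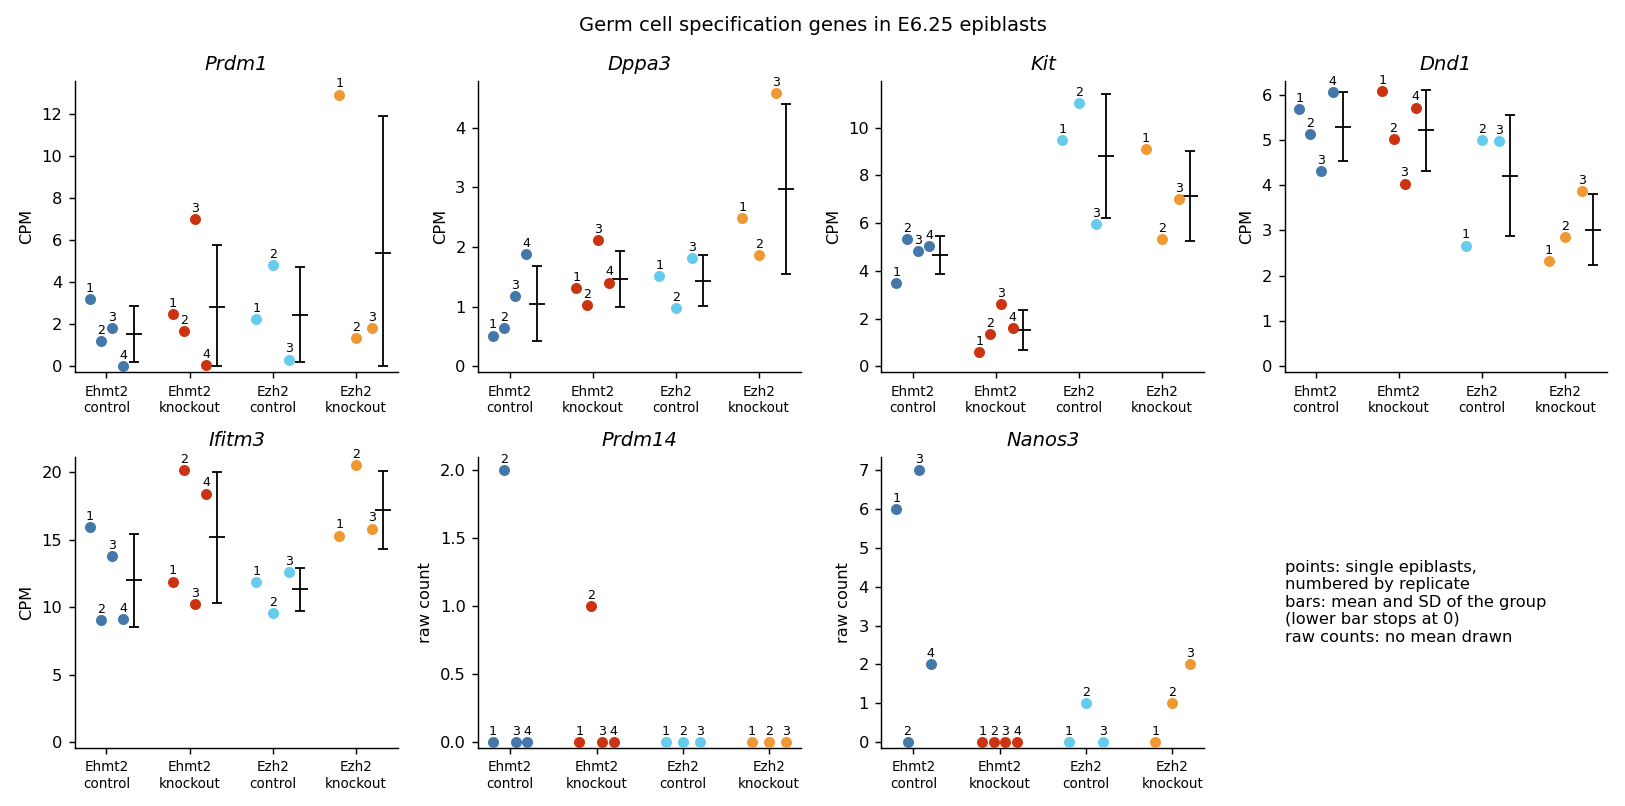
Level of each germ cell gene in each of the 14 epiblasts, as CPM for the 5 tested genes and as raw counts for *Prdm14* and *Nanos3*, with points numbered by replicate and bars giving the mean and SD of each group. In the *Kit* panel the 4 *Ehmt2* knockouts lie between 0.588 and 2.60 CPM, below all 4 controls at 3.50 to 5.33 CPM.

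A member was called when its Benjamini-Hochberg adjusted p in edgeR's quasi-likelihood test was under 0.05 and its log2 fold change was beyond 1.4. In the *Ehmt2* cross 0 of the 5 tested members were called, where 0.499% of the 49872 transcripts tested were called. At an unadjusted p under 0.05 it was 1 of 5 (*Kit*, lower), beside 11.8% of all transcripts in either direction and 5.62% lower, and DESeq2 called 1 of 5 (also *Kit*), beside 1.48%. In the *Ezh2* cross 0 of 5 were called, beside 0.0118% of 50855 transcripts. There, 2 of 5 (*Dppa3* and *Ifitm3*, both higher) had an unadjusted p under 0.05, beside 7.02% of all transcripts in either direction and 4.05% higher, and DESeq2 called 0 of 5, beside 0.35%. The median log2 fold change of the 5 members was 0.35 in the *Ehmt2* cross and 0.60 in the *Ezh2* cross, and that of all transcripts tested was -0.01 and 0.01. All these shares count every isoform, whereas each member is 1 transcript. With 1 transcript per gene, edgeR called 0 of 5 members in each cross. The share called was then 0.902% of 13749 in the *Ehmt2* cross and 0% of 14010 in the *Ezh2* cross.

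**Figure D2:**
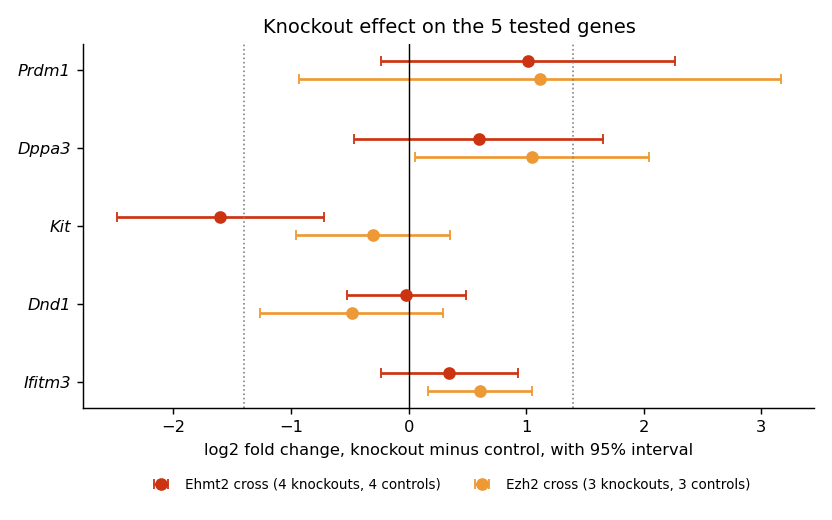
Log2 fold change of the 5 tested germ cell genes (knockout minus control, points) with 95% intervals (bars) from the edgeR fit of each cross, and dotted lines at the threshold of 1.4 in either direction. The interval lies below 0 for *Kit* in the *Ehmt2* cross, at -2.48 to -0.72, and above 0 for *Dppa3* and *Ifitm3* in the *Ezh2* cross, before adjustment for the number of transcripts. Without knockout 3 the value of *Dppa3* in the *Ezh2* cross was 0.59 (SE 0.46).

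*Prdm1* encodes the zinc-finger repressor BLIMP1, which starts the germ cell programme and is also expressed in visceral endoderm at this stage. Its transcript ENSMUST00000039174 lies on the minus strand at chr10:44437177-44458748 (GRCm38), with 8 exons and 5281 nt. The promoter window of RefSeq, 250 bases before to 50 bases after the start at chr10:44458699-44458998 on the minus strand (GRCm38.p6), is shown because the *Prdm1* locus is where the study placed an H3K9me2-marked enhancer. The amplicon of that putative enhancer, located from the study's ChIP-qPCR primers by exact match, lies at chr10:44391669-44391765 on the plus strand (GRCm38), 66983 bases downstream of the transcript's start and 45412 bases beyond its end. Neither sequence holds CACGTG, a form of the E-box, or TCCCGC, a core bound by E2F factors, on either strand. Both are therefore in lower case throughout. Other forms of the E-box were not searched for.
Prdm1 promoter: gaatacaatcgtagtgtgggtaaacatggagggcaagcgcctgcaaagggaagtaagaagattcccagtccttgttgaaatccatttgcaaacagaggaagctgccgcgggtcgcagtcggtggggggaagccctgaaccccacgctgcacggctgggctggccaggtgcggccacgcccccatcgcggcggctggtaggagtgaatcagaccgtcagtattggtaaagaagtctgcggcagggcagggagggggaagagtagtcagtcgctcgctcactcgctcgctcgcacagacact
Prdm1 enhancer amplicon: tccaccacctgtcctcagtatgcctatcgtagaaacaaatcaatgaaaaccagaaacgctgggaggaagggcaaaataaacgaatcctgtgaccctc

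Its level differed widely between epiblasts of the same genotype. In the *Ehmt2* cross, *Prdm1* stood at 3.21, 1.18, 1.81 and 0 CPM in controls 1 to 4 and at 2.49, 1.68, 7.00 and 0.0645 CPM in knockouts 1 to 4. Both libraries numbered 4 were at or near 0, with 0 and 4 counts, knockout 3 was the highest, and the genotypes overlapped. The log2 fold change was 1.01 (SE 0.57, 95% interval -0.24 to 2.27, adjusted p = 0.531, edgeR), and without knockout 3 it was 0.37. *Prdm1* in the *Ezh2* cross stood at 2.26, 4.81 and 0.322 CPM in controls and at 12.9, 1.36 and 1.82 CPM in knockouts. Knockout 1 was far above the others and knockouts 2 and 3 lay within the range of the controls. The log2 fold change was 1.12 (SE 0.93, 95% interval -0.93 to 3.17, adjusted p = 0.865, edgeR), and without knockout 1 it was -0.63.

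The highest *Prdm1* control and knockout of the *Ezh2* cross were the libraries with the high visceral endoderm markers. Control 2 held 1011 CPM of these 11 markers and 4.81 CPM of *Prdm1*, and knockout 1 held 2256 and 12.9 CPM. Controls 1 and 3 and knockouts 2 and 3 held 10.2 to 23.8 CPM of the markers. With both marker-rich libraries left out, an alternative added after the levels were seen, the log2 fold change was 0.30 (SE 0.84, adjusted p = 0.983, edgeR). Knockout 3 of the *Ehmt2* cross had 7.00 CPM of *Prdm1* with only 13.3 CPM of the markers, whereas control 4 and knockout 4, at 0 and 0.0645 CPM of *Prdm1*, had the lowest marker sums, 2.22 and 1.07 CPM. The part of visceral endoderm RNA in the *Prdm1* values was not tested. In whole epiblasts, fewer cells of a type and less RNA per cell cannot be told apart.

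**Figure D3:**
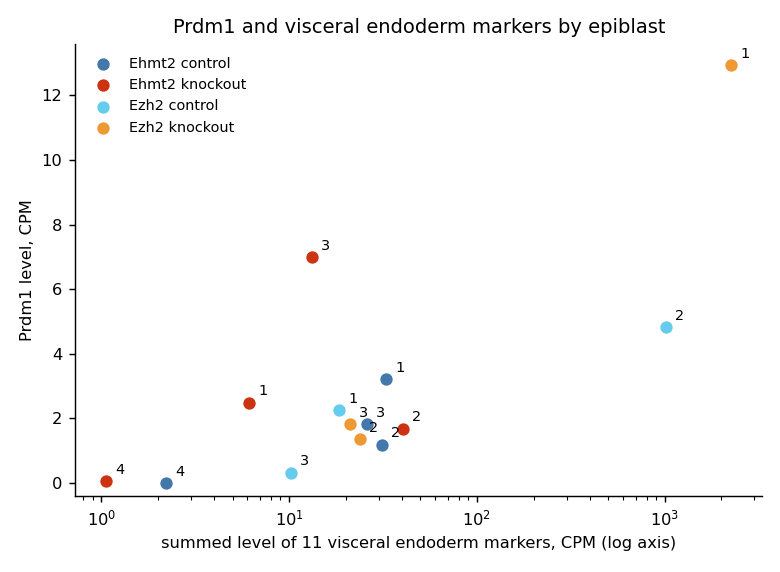
*Prdm1* level (vertical, CPM) against the summed level of 11 visceral endoderm markers (horizontal, CPM, log axis) in each of the 14 epiblasts, numbered by replicate and coloured by group. *Ezh2* knockout 1 and control 2 lie apart on the right, at 2256 and 1011 CPM of the markers and 12.9 and 4.81 CPM of *Prdm1*, while *Ehmt2* knockout 3 reached 7.00 CPM at a marker sum of 13.3 CPM.

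*Prdm14*, on chr1:13113457-13127163 (minus strand, 8 exons, 2564 nt), encodes the partner of BLIMP1 that supports the return of pluripotency genes in germ cells. It was almost undetected at this depth. *Ehmt2* control 2 held 2 counts and *Ehmt2* knockout 2 held 1, and the other 12 epiblasts held 0. A count of 0 in a library allows up to 3 counts, which corresponds to 0.0484 to 0.0855 CPM in the *Ehmt2* libraries and 0.0816 to 0.0966 CPM in the *Ezh2* libraries. These limits cover counting error only. No difference between genotypes was detectable.

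*Dppa3* encodes Stella, a small nuclear protein of germ cells, oocytes and early embryos that protects DNA methylation. The counted transcript, ENSMUST00000049644, lies at chr6:122626410-122630272 on the plus strand (4 exons, 833 nt). *Ezh2* epiblasts stood at 1.51, 0.975 and 1.82 CPM in controls and at 2.48, 1.86 and 4.57 CPM in knockouts. Every knockout was above every control, by little in knockout 2, and 6.46% of all transcripts tested showed this order. Control and knockout means were 1.43 ± 0.43 and 2.97 ± 1.42 CPM (n = 3, SD), and the log2 fold change was 1.05 (SE 0.45, 95% interval 0.06 to 2.04, unadjusted p = 0.0399, adjusted p = 0.691, edgeR). The size rested on knockout 3, without which the log2 fold change was 0.59 (SE 0.46, unadjusted p = 0.23, edgeR). The unadjusted p was also above 0.05 without control 1 or control 2, at 0.0703 and 0.121 (edgeR). The exact permutation test gave p = 0.1 (two-sided), the smallest that 3 against 3 allows. *Dppa3* in the *Ehmt2* cross stood at 0.514, 0.635, 1.18 and 1.88 CPM in controls and at 1.31, 1.03, 2.12 and 1.4 CPM in knockouts. The groups overlapped, and the log2 fold change of 0.60 (SE 0.49, adjusted p = 0.689, edgeR) had an interval of -0.46 to 1.66 and was 0.29 without knockout 3. *Dppa3* has processed copies elsewhere, and 25.1% of its 794 windows of 40 bases, the length of the trimmed reads, occurred in transcripts of other genes, 195 of them in *Dppa3-ps*. The counting of such reads makes the level uncertain. The other isoform, in the same fit, gave log2 fold changes of 0.67 in the *Ehmt2* cross and 1.02 in the *Ezh2* cross. It held nearly as many counts, 182 against 200 in *Ehmt2* controls and 144 against 147 in *Ezh2* controls. The pair were thus probably counted largely from the same reads, and the second is hardly a further measurement.

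*Nanos3* encodes an RNA-binding protein that keeps migrating germ cells alive. Its transcript (chr8:84173733-84176552, minus strand, 2 exons, 730 nt) was counted 6, 0, 7 and 2 times in *Ehmt2* controls 1 to 4 and 0 times in each of the 4 knockouts. The controls thus held 15 counts in all (95% exact Poisson interval 8.4 to 24.7) and the knockouts 0 (interval 0 to 3.69). These intervals cover counting error only, not the spread between epiblasts. Control 2 was at 0 as well, so the groups overlapped. The two-sided exact permutation test on CPM gave p = 0.143. The *Ezh2* cross had counts of 0, 1 and 0 in controls and 0, 1 and 2 in knockouts. At most 7 counts in a library were behind any of these values, and the gene failed the filter on low counts in both crosses.

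*Kit* encodes the receptor tyrosine kinase for Kit ligand, which germ cells need to survive and migrate. It showed the largest difference among the members. The counted transcript, ENSMUST00000005815, lies on the plus strand at chr5:75574955-75656722 (GRCm38), with 21 exons and 5214 nt. Its RefSeq promoter window, at chr5:75574737-75575036 on the plus strand (GRCm38.p6), is printed because this is the member that differed most, with matches to TCCCGC in capitals, here read on the other strand as GCGGGA.
Kit promoter: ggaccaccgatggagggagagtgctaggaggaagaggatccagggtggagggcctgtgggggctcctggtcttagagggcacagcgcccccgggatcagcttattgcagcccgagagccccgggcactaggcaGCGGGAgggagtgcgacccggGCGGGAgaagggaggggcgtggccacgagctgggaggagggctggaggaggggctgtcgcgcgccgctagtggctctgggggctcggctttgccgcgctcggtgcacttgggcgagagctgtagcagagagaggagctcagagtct
The window held 2 such matches and no CACGTG. Of all 32851 promoter windows of this length, 20.0% held TCCCGC on either strand and 7.2% held CACGTG, which reads the same on both strands. The ratio of observed to expected CpG was 0.621 for *Kit* and 0.767 for *Prdm1*, above the median window at 0.384, and 0.238 for *Ifitm3* and 0.131 for *Nanos3*, below it. The windows of *Ifitm3* and *Nanos3* held neither motif. *Prdm14*, *Dppa3* and *Dnd1* had no entry.

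In the *Ehmt2* cross *Kit* stood at 3.50, 5.33, 4.83 and 5.03 CPM in controls 1 to 4 and at 0.588, 1.34, 2.60 and 1.61 CPM in knockouts 1 to 4. All 4 knockouts were below all 4 controls, an order that 2.53% of all transcripts tested showed. Control and knockout means were 4.67 ± 0.81 and 1.54 ± 0.83 CPM (n = 4, SD), and the log2 fold change was -1.60 (SE 0.40, 95% interval -2.48 to -0.72, unadjusted p = 0.00192). The adjusted p was 0.12 in edgeR, short of the threshold, and 0.00745 in DESeq2 at a log2 fold change of -1.60. The two-sided exact permutation test, which ignored the comparison set, gave p = 0.0286, the smallest that 4 against 4 allows. In a fit of each knockout against all 4 controls, the log2 fold changes were -2.99, -1.80, -0.84 and -1.53 for knockouts 1 to 4. Knockout 3 thus fell short of the 1.4 threshold, and the rule requiring it in every knockout, met by 0.712% of transcripts, did not call *Kit*. By that rule 0 of 5 members were called in the *Ezh2* cross too, beside 0.716% of transcripts. The other protein-coding isoform held exactly as many counts, 858 in the controls and 270 in the knockouts, so the pair were not counted from separate reads and the second is no further measurement. Each of the 4 retained-intron isoforms, too few in counts to be tested and possibly counted from some of the same reads, had fewer counts in the knockouts, from 82 against 27 down to 4 against 0.

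The summed extraembryonic ectoderm markers were higher in knockouts 1 to 3 than in any control. Of the 5 markers tested, 1 was called higher and 0 lower by edgeR, beside 0.441% of all transcripts called higher. In replicate 4, where *Cdx2*, *Elf5* and *Hand1* were at 0 in both libraries, the 6 markers summed to 1.15 CPM in the control and 0.436 CPM in the knockout, while *Kit* stood at 5.03 and 1.61 CPM, a difference of -1.39 on the scale of log2(CPM + 0.5). The summed epiblast markers were lower in knockouts, at 1419 to 2126 CPM against 2384 to 2732 CPM, a sum made up mostly of *Dnmt3b*, a DNA methyltransferase, at 1239 ± 190 CPM against 1748 ± 200 CPM (SD, n = 4). The mean log2 level of the 8 markers overlapped, at 6.27 to 6.85 in knockouts and 6.72 to 7.08 in controls. Of the 8, 6 had a negative log2 fold change and 2 (*Sox2* and *Pou3f1*) a positive one. At an unadjusted p under 0.05 there were 4, all lower, beside 5.62% of all transcripts lower, and 0 were called by edgeR, beside 0.499%. The part of the extraembryonic ectoderm and epiblast markers in the *Kit* difference was not tested. *Kitl*, which encodes the ligand, averaged 0.385 ± 0.31 CPM in the control epiblasts and 0.437 ± 0.40 CPM in the mutant ones (n = 4, SD), with a log2 fold change of -0.05 (SE 0.61). *Pdgfra*, the neighbour of *Kit* on chromosome 5, had a log2 fold change of 0.43 (SE 0.63).

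**Figure D4:**
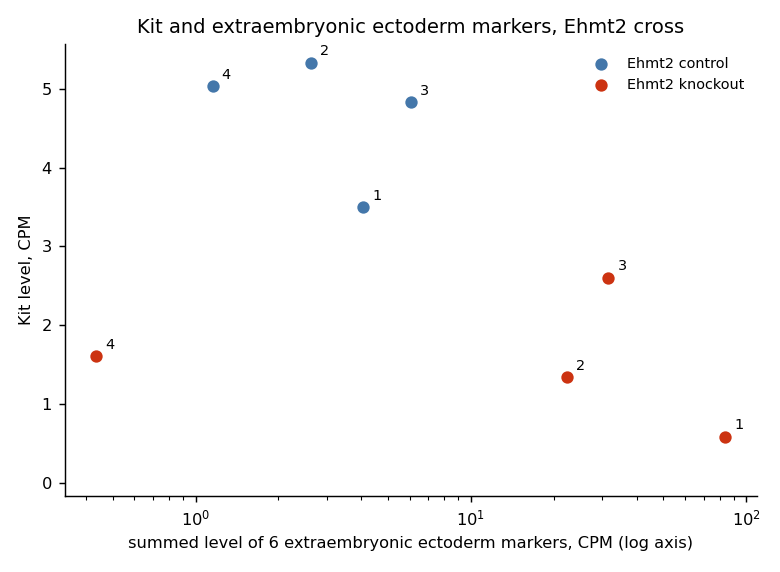
*Kit* level (vertical, CPM) against the summed level of 6 extraembryonic ectoderm markers (horizontal, CPM, log axis) in the 8 epiblasts of the *Ehmt2* cross, numbered by replicate. Knockouts 1 to 3 lie at marker sums of 22.4 to 84.0 CPM, and knockout 4 at 0.436 CPM of the markers and 1.61 CPM of *Kit*. Every knockout lies below every control in *Kit*. The part of extraembryonic ectoderm RNA in the *Kit* difference was not tested.

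*Kit* in the *Ezh2* cross stood at 9.48, 11.0 and 5.94 CPM in controls and at 9.11, 5.32 and 6.99 CPM in knockouts. The groups overlapped, with a log2 fold change of -0.30 (SE 0.30, 95% interval -0.96 to 0.35, adjusted p = 0.888, edgeR). The effect in the *Ehmt2* cross minus that in the *Ezh2* cross was -1.29 on the log2 scale (SE 0.53, 95% interval -2.42 to -0.17, unadjusted p = 0.0268, adjusted p = 0.532, edgeR), so a difference between the crosses did not pass the test. Of the 5 members 0 passed at an adjusted p under 0.05 in either edgeR or DESeq2, beside 0.0579% of 55248 transcripts in edgeR, and *Kit* was the only member with an unadjusted p under 0.05 in edgeR. The differences of the other 4 lay between -0.45 (*Dppa3*, SE 0.67) and 0.46 (*Dnd1*, SE 0.40).

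*Dnd1* encodes an RNA-binding protein that protects germ cell mRNAs from microRNAs. Its most counted transcript, ENSMUST00000155827 (chr18:36763671-36766214, minus strand, 3 exons, 1804 nt), is annotated with a retained intron, and 140 of its bases also lie in exons of *Wdr55* on the opposite strand. It was the steadiest member in the *Ehmt2* cross, at 5.68, 5.12, 4.30 and 6.06 CPM in controls and 6.07, 5.02, 4.03 and 5.71 CPM in knockouts. The groups covered nearly the same range, and the interval of the log2 fold change of -0.02 (SE 0.23, adjusted p = 0.985, edgeR) ran from -0.53 to 0.49. The *Ezh2* cross gave 2.67, 4.99 and 4.98 CPM in controls and 2.32, 2.86 and 3.86 CPM in knockouts. Control 1 lay among the knockouts, and the log2 fold change was -0.48 (SE 0.35, 95% interval -1.26 to 0.30, adjusted p = 0.84, edgeR). The protein-coding isoform gave -0.08 (SE 0.30) and -0.82 (SE 0.47) in the respective crosses.

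*Ifitm3* encodes fragilis, a membrane protein of the interferon-induced family that is switched on where germ cells form. Its transcript lies at chr7:141009586-141010770 on the minus strand, with 2 exons and 678 nt, in a cluster of related genes. Its level in the *Ezh2* cross was 11.9, 9.54 and 12.6 CPM in controls and 15.3, 20.5 and 15.8 CPM in knockouts. Every knockout was above every control, the order that 6.46% of all transcripts showed. Control and knockout means were 11.3 ± 1.58 and 17.2 ± 2.89 CPM (n = 3, SD), and the log2 fold change was 0.60 (SE 0.20, 95% interval 0.16 to 1.05, unadjusted p = 0.0119, adjusted p = 0.574, edgeR), and the exact permutation p was 0.1. The unadjusted p was 0.0511 without control 2 and 0.0627 without knockout 2 (edgeR). Without the marker-rich control 2 and knockout 1 the log2 fold change was 0.57 (SE 0.25). In the *Ehmt2* cross it stood at 15.9, 9.05, 13.8 and 9.13 CPM in controls and 11.9, 20.2, 10.2 and 18.4 CPM in knockouts. The groups overlapped, with a log2 fold change of 0.35 (SE 0.27, 95% interval -0.24 to 0.93, adjusted p = 0.669, edgeR).

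*Ifitm2*, a close relative in the same cluster, had lower levels in the knockouts of the *Ehmt2* cross, where the groups overlapped for *Ifitm3*. The level of *Ifitm2* was 60.2, 63.1, 63.9 and 83.0 CPM in controls and 33.4, 50.2, 38.6 and 30.8 CPM in knockouts. All knockouts were below all controls, as for 2.53% of all transcripts. The log2 fold change was -0.82 (SE 0.17, unadjusted p = 0.000409, adjusted p = 0.0564, edgeR), within the 1.4 threshold. The adjusted p was 0.000427 in DESeq2. In edgeR it was 0.0286 to 0.141 when 1 epiblast was left out, under 0.05 only without knockout 2, and over the other alternatives it ran from 0.0174 with no filter on low counts to 0.218 without the term for the comparison set, with 0.12 under the replicate block. Its log2 fold change in the *Ezh2* cross was 0.03 (SE 0.22). Of the 639 windows of 40 bases in *Ifitm3*, 14.7% occurred in transcripts of other genes, 30 of them in *Ifitm2*, whereas 51.8% of the windows of *Ifitm2* occurred in other genes, largely predicted ones. The *Ifitm2* level is therefore the less certain of the pair.

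**Figure D5:**
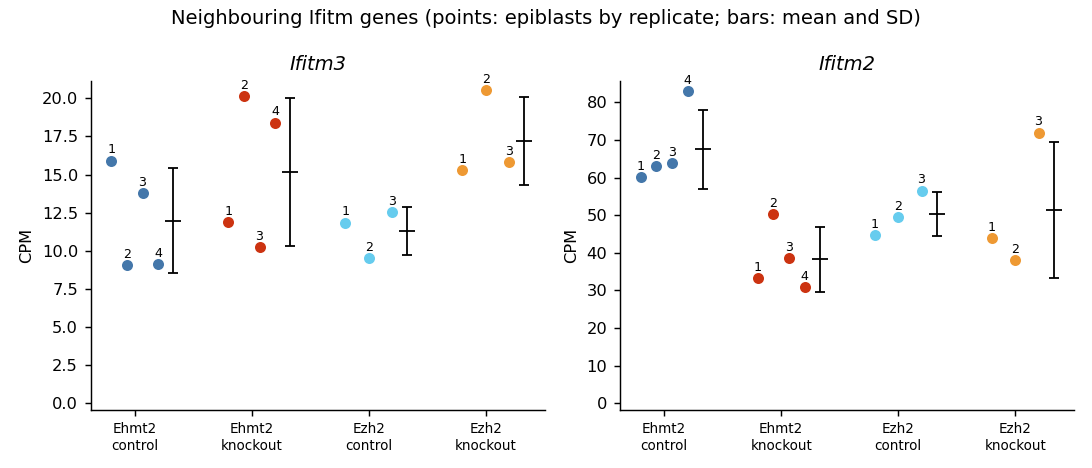
Levels of *Ifitm3* (left) and *Ifitm2* (right) in CPM in each of the 14 epiblasts, numbered by replicate, with the mean and SD of each group. *Ifitm3* in the *Ezh2* knockouts lies above all controls of that cross, from 15.3 CPM upwards, and *Ifitm2* in the *Ehmt2* knockouts lies below all controls of that cross, at 30.8 to 50.2 CPM.

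Among 14 upstream signals and factors, all tested, 1 was called higher and 0 lower in the *Ehmt2* cross, where 0.441% of all transcripts were called higher. At an unadjusted p under 0.05 (edgeR) there were 6 of 14, 3 higher and 3 lower, beside 11.8% of all transcripts. *Bmp4*, the inducing ligand, stood at 1.4, 2.50, 1.57 and 1.23 CPM in controls and at 44.8, 11.7, 11.8 and 4.23 CPM in knockouts. Every knockout was above every control, as for 2.56% of all transcripts, with a log2 fold change of 3.20 (SE 0.51, adjusted p = 0.0167, edgeR). The call was lost without control 1, 2 or 3, at adjusted p-values of 0.087, 0.0721 and 0.0968. The largest difference downward was that of *T* (Brachyury), a primitive streak factor, at -2.05 (SE 1.21, adjusted p = 0.548, edgeR), with control 2 alone at 15.1 CPM. The median of the 14 was 0.01. In the *Ezh2* cross 0 of 14 were called by edgeR, beside 0.0118% of all transcripts, and 2 had an unadjusted p under 0.05, beside 7.02%. *Bmp4* stood at 1.3, 1.57 and 1.29 CPM in these controls and at 9.21, 3.46 and 5.14 CPM in the knockouts. Every knockout was above every control, as for 6.46% of all transcripts. The log2 fold change of *Bmp4* was 2.09 (SE 0.40, adjusted p = 0.276, edgeR), and DESeq2 called it, at an adjusted p of 0.000453. At the lower end was *Otx2*, which restrains germ cell entry, at -0.33 (SE 0.14). The median there was 0.05. *Otx2* in the *Ehmt2* cross had a log2 fold change of -0.44 (SE 0.13, adjusted p = 0.208, edgeR). All its knockouts, at 84.4 to 132 CPM, were below all controls, at 149 to 170 CPM, as for 2.53% of all transcripts.

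Among 11 partners and other early germ cell genes, 10 were tested in the *Ehmt2* cross. Of these 1 was called higher, beside 0.441% of all transcripts, and none lower. At an unadjusted p under 0.05 (edgeR) there were 3 of 10, 1 higher and 2 lower, beside 11.8% of all transcripts. *Tfap2c*, the third factor of the germ cell programme and also a trophoblast factor, stood at 0.636, 1.04, 1.05 and 0.0180 CPM in controls and at 25.5, 7.67, 7.91 and 0 CPM in knockouts. Knockouts 1 to 3 were above all controls and knockout 4 was at 0, the same split as that of the extraembryonic ectoderm markers. Its log2 fold change was 3.80 (SE 0.57, adjusted p = 0.0119, edgeR), and the call was likewise lost without control 1, 2 or 3, at adjusted p-values of 0.0776, 0.0699 and 0.079. *Alpl*, the alkaline phosphatase long used to stain germ cells, had the largest difference downward, -0.74 (SE 0.29, adjusted p = 0.352). The median was -0.08. In the *Ezh2* cross 0 of 11 were called by edgeR, beside 0.0118% of all transcripts, and 2 had an unadjusted p under 0.05, beside 7.02%. *Tfap2c* was at 1.96 (SE 0.83) and *Cxcr4*, a chemokine receptor of migrating germ cells, at -0.69 (SE 0.96), around a median of -0.07. Across *Ehmt2* knockouts 1 to 4 the extraembryonic ectoderm markers summed to 84.0, 22.4, 31.6 and 0.436 CPM, where *Bmp4* stood at 44.8, 11.7, 11.8 and 4.23 CPM. The part of extraembryonic ectoderm RNA in the *Bmp4* and *Tfap2c* values was not tested.

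Of 12 relatives and cluster neighbours of the members, 8 were tested in the *Ehmt2* cross and 0 called by edgeR, beside 0.499% of all transcripts. Of the 8, 2 (*Ifitm2* and *Ifitm7*, both lower) had an unadjusted p under 0.05, beside 5.62% of all transcripts lower. *Ifitm7* had a log2 fold change of -2.13 (SE 0.70, adjusted p = 0.24) and *Ifitm5* of 0.97 (SE 0.97), and the median was -0.08. In the *Ezh2* cross 10 were tested, with 0 called, beside 0.0118% of all transcripts, and 0 at an unadjusted p under 0.05, beside 7.02%. They ran from *Nanos1*, a paralog of *Nanos3*, at -0.35 (SE 0.29) to *Kdr*, near *Kit*, at 1.85 (SE 1.42). *Nanos2* was not listed in the counts. Of 4 later germ cell genes, 0 were called by edgeR in either cross, beside 0.499% of all transcripts in the *Ehmt2* cross and 0.0118% in the *Ezh2* cross. In the *Ehmt2* cross 1 of 4 had an unadjusted p under 0.05, beside 11.8% of all transcripts. In the *Ezh2* cross it was 2 of 4, beside 7.02%. The largest difference was that of *Ddx4* in the *Ehmt2* cross, 1.44 (SE 0.35, adjusted p = 0.111, edgeR). In the *Ezh2* cross it was that of *Mael*, 1.54 (SE 0.27, adjusted p = 0.186, edgeR). Both were higher in every knockout than in any control, as for 2.56% and 6.46% of all transcripts in the respective crosses. The lowest of the 4 was *Sycp3*, at -0.38 (SE 0.20) in the *Ehmt2* cross and 0.0096 (SE 0.19) in the *Ezh2* cross. The medians of the 4 were 0.851 and 0.645.

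Profiles across the 14 epiblasts, as log2(CPM + 0.5) centred within each comparison set, were compared with 13348 other genes by the root mean square difference. The genes nearest to *Kit* were *Tspan7* (0.273), *Ablim1* (0.306) and *Sema4a* (0.317), against a root mean square of 0.662 for *Kit* itself. The nearest to *Prdm1* were *Qsox1* (0.449), *Lpar1* (0.526) and *Dram1* (0.530), against 0.940. *Dppa3* was nearest to *Gm20458*, *Pax8* and *Btbd19*, at 0.217 to 0.271 against 0.468. *Dnd1* was nearest to *Ttf1*, *Epn2* and *Diaph3*, at 0.128 to 0.162 against 0.277, and *Ifitm3* to *Arfgap2*, *Polr2e* and *Cacnb3*, at 0.204 to 0.210 against 0.378. For members that vary little this measure also picks genes that vary little.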

How the data were processed

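RNA of single dissected E6.25 epiblasts was amplified (Ovation RNA-seq System V2) before library preparation. Single-end reads were cut to 40 nt by the authors, who aligned them with TopHat2 to GRCm38 and counted reads per Ensembl transcript with HTSeq-count, and the deposited values are these raw counts, 1 table per epiblast. Strand handling and the HTSeq overlap mode are not given in the sources used here. Absent transcripts were taken as 0, and a row of unaligned reads in control 4 and knockout 4 of the *Ehmt2* cross (12.6% and 13.3% of their totals) was left out. Of 72515 transcripts, 70021 (96.6%) matched GENCODE vM21, which supplied names and positions.

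Each cross was fitted by itself in edgeR 4.0.16 (R 4.3.3; filterByExpr, TMM, glmQLFit, glmQLFTest) on all transcripts that passed the filter, with the comparison set (replicates 1 to 3, replicate 4) as a term in the *Ehmt2* cross. The SE is the log2 fold change over the square root of F. Levels are CPM, with a pseudocount of 0.5 on the log2 scale. Exact permutation tests were two-sided over the epiblasts, 10 for the 5 tested members and 4 for the other members, and were not adjusted. They were also run for the targeted genes and the genes of the lists, and those values are not given here. They shuffled all epiblasts of a cross freely, without regard to the comparison set. Alternatives were DESeq2 1.42.0, RLE scaling, no filter, 1 transcript per gene, the second isoform, a replicate block, no set term, no replicate 4, each epiblast left out, and other call rules. The fit was tested on simulated counts. Promoter windows are from RefSeq (GRCm38.p6). The members and gene lists were chosen with earlier results of these data known.

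Labels give the controls as +/+, while the methods also allow heterozygotes. The epiblasts came from 4 and 3 litters, and which control and knockout shared a litter is not stated. Same-numbered control and knockout deviated from their group means with correlations of 0.0538, 0.108, 0.164 and 0.373 in the *Ehmt2* cross and -0.000706, -0.114 and 0.156 in the *Ezh2* cross. Differently numbered ones gave -0.243 to 0.155 and -0.202 to 0.206. With replicate 4, a comparison set of its own, left out, the same-numbered values of the *Ehmt2* cross were -0.0263, 0.000493 and 0.0181. These correlations cannot settle which epiblasts shared a litter, since littermates need not deviate alike. The numbers were not taken to pair epiblasts in the main fit, and the replicate block was run as an alternative. Named genes were the members, the targeted genes, the called genes and extremes of 3 lists, those compared in sequence or position, and the 3 nearest profiles per member. *Ifitm2*, *Kitl* and *Pdgfra* come under sequence, ligand and position.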

Additional observations from a re-analysis of the deposited data

Results flagged for a closer look

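*Prdm14* met Dixon's ratio for a sample apart in both genotypes of the *Ehmt2* cross. Control 2 stood at 0.0423 CPM, from 2 counts, and knockout 2 at 0.0285 CPM, from 1 count, and the other epiblasts of that cross were at 0. With the other 3 of a group tied at 0, the ratio is 1 for any count in the fourth, so the test could not have come out otherwise, its usual rate of about 1 in 20 by chance does not apply, and no epiblast is shown to stand apart.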

How the results depend on the processing

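The count of members called stayed at 0 in the *Ezh2* cross under every alternative, and in the *Ehmt2* cross under all but DESeq2, which called 1 (*Kit*). DESeq2 also called *Bmp4* in the *Ezh2* cross (adjusted p = 0.000453, against 0.276 in edgeR), and in all 736 against 249 transcripts in the *Ehmt2* cross and 178 against 6 in the *Ezh2* cross. Leaving out each epiblast in turn gave 0 members called in both crosses and 0 differences between crosses, with *Kit* in the *Ehmt2* cross at -2.05 to -1.33 (adjusted p 0.0611 to 0.285, edgeR). Over its other alternatives *Kit* lay between -1.75 and -1.59 (adjusted p 0.00745 to 0.3). One epiblast left out moved *Prdm1* in the *Ehmt2* cross between 0.37 (without knockout 3) and 1.49 and *Dppa3* in the *Ezh2* cross between 0.59 (without knockout 3) and 1.30. Directions turned for 4 small or unsteady values. Leaving out 1 epiblast gave *Dnd1* in the *Ehmt2* cross -0.14 to 0.070, *Prdm1* in the *Ezh2* cross -0.63 (without knockout 1) to 2.05, and the difference between crosses -1.05 to 1.64 for *Prdm1* and -0.76 to 0.0036 for *Dppa3*. DESeq2 gave that difference as 0.15 for *Prdm1*. All other member values kept their direction under the alternatives run. The replicate block left *Kit* at -1.75 (adjusted p = 0.12) and lost the calls of *Bmp4* (adjusted p = 0.0572) and *Tfap2c* (adjusted p = 0.0715), with 105 transcripts called in the *Ehmt2* cross and 10 in the *Ezh2* cross, and changed no count of members. Without the term for the comparison set the adjusted p was 0.0942 for *Bmp4* and 0.486 for *Tfap2c*. A setting that left out both *Ezh2* epiblasts rich in visceral endoderm markers was added after the data were seen. The number of epiblasts, with 3 or 4 a group, and for *Prdm14* and *Nanos3* at most 7 counts in a library, limit what could be detected.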
